A study of Mus musculus with 6 samples.

Results

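The receptors described here bind the cytokines of the common gamma chain family and the related thymic stromal lymphopoietin (TSLP). The set was defined by name and held 9 genes, Il2ra, Il2rb, Il2rg, Il4ra, Il7r, Il9r, Il15ra, Il21r and Crlf2. All probe sets that the array annotation gives to 1 of these symbols were used. There were 14 such probe sets, for 8 of the 9 genes, among 45037 probe sets and 18193 named genes measured. Il2rg had no probe set in the annotation used here and was not analysed here. Expression arrays measured the RNA of early thymic progenitors (ETPs), the first T-lineage cells of the thymus. They were sorted from C57Bl/6 mice aged 10 weeks by the gate Lin- CD44+ CD25- kit+. Of the 6 arrays, 3 held RNA of Tcf1-/- mice and 3 of Tcf1-/+ mice. The titles name the second group Tcf1-/+, while its genotype field says wild type, and the name of the titles is used here. The labels call the arrays biological replicates and do not say whether cells of several animals were pooled for 1 array, so p-values measure the spread between these arrays. The targeted gene was not analysed here, so the labels were not checked against it.

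Each of these cytokines signals through a receptor of several chains. The shared gamma chain, encoded by Il2rg, pairs with a chain particular to the cytokine, and Il2rb serves both interleukin 2 and interleukin 15. Binding to a gamma chain receptor brings together the kinases JAK1 and JAK3, which activate STAT transcription factors, above all STAT5 for interleukins 2, 7, 9 and 15 and STAT6 for interleukin 4. Interleukin 7 is the main survival and growth factor of thymocytes after the ETP stage, and interleukin 15 that of natural killer (NK) cells. Il7r also forms the TSLP receptor together with Crlf2. Il2ra encodes CD25, the surface protein whose absence defines the sort gate of these cells.

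The promoter of Il7r is shown because both probe sets of this gene separated the genotypes, and that of Crlf2 because it encodes the other chain of the TSLP receptor. Both sequences run from 250 bases before to 50 bases after a RefSeq transcription start in GRCm38.p6. The Il7r window lies at chr15:9529827-9530126 on the minus strand and the Crlf2 window at chr5:109558944-109559243 on the minus strand. Capitals mark matches on either strand to 4 short motifs, CTTTGA for TCF/LEF, GGAAGT for ETS, TGTGGT for RUNX and TTCNNNGAA for STAT factors.
Il7r: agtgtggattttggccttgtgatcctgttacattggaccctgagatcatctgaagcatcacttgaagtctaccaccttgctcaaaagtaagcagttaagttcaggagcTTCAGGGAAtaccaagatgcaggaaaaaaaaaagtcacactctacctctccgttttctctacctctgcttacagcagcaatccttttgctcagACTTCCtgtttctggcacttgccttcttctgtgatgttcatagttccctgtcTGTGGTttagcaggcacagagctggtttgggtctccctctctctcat
Crlf2: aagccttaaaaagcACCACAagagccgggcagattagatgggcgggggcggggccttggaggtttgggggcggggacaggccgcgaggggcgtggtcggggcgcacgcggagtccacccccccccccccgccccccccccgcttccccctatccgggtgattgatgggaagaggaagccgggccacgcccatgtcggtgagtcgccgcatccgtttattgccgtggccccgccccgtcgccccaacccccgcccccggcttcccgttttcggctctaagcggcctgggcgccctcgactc
The Il7r window held 1 STAT match, 1 ETS match and 1 RUNX match, beginning at bases 109, 202 and 254 counted from its 5′ end, with no overlap between them. The Crlf2 window held 1 RUNX match, at base 15. No TCF/LEF match was found in either. Over 32851 RefSeq promoter windows of the same length, 16.0% held the TCF/LEF letters, 23.8% the ETS letters, 16.8% the RUNX letters and 8.3% the STAT letters. Of the 7 receptor genes with a window in the table, 1 held the TCF/LEF letters (the second window of Il15ra) and 3 the ETS letters (Il2ra, Il7r and Il15ra). The RUNX letters were held by 4 (Il7r, Il9r, Il21r and Crlf2) and the STAT letters by 1. These counts are per gene, with 8 windows for the 7 genes, while the shares above are per window. Il2rb had no window. A match describes letters only, and no binding was measured here.

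Values are log2 levels per probe set as deposited, and differences are given as Tcf1-/- minus Tcf1-/+. A level of 5.21, the 95th percentile of 27 control probe sets for bacterial transcripts, was taken as background. Array medians lay between 5.80 and 5.86. Tcf1-/- replicate 2 stood apart, with correlations of 0.870 to 0.893 with the other arrays over all probe sets, against 0.913 to 0.933 among the 5 others. On it the difference between the 3′ and 5′ control probe sets for Tfrc was 0.055, against -1.08 to -0.62 on the others. For Gapdh the same difference was 2.78 on it, within the 1.74 to 2.89 of the others. The arrays also differed in sex-linked signal. Tcf1-/- replicates 2 and 3 had mean log2 levels of 3 Y-linked genes of 8.49 and 8.42, and Tcf1-/+ replicate 2 of 9.39, against 5.0 on Tcf1-/- replicate 1 and 4.07 and 4.01 on Tcf1-/+ replicates 1 and 3. Xist was at 5.12 on Tcf1-/+ replicate 2 and between 12.9 and 13.4 on the other arrays, so that Tcf1-/- replicates 2 and 3 carried both Xist and Y-linked signal. Of the sort gate, Cd44 lay between 9.60 and 10.39 on all 6 arrays, with a difference of 0.12 (SE 0.30). Kit was at 9.99, 7.45 and 9.60 across Tcf1-/-, and at 10.80, 10.50 and 9.83 across Tcf1-/+, lowest on Tcf1-/- replicate 2.

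The comparison asked how the receptors of ETPs that lack Tcf1 differ from those of Tcf1-/+ ETPs. The gene with the clearest separation was Il7r, higher on every Tcf1-/- array than on every Tcf1-/+ array on both of its probe sets, by 1.996 and 3.14 log2 units. Il2rb, the shared chain of the interleukin 2 and 15 receptors, had means 2.36 and 1.25 higher in Tcf1-/-, with overlapping arrays. The mean differences of Il4ra, Il21r and Crlf2 lay near 0 on their brightest probe sets. Of the 14 probe sets, 11 had a higher and 3 a lower Tcf1-/- mean, where 23891 of all 45037 probe sets had a higher and 21146 a lower one. By limma's test, 0 of the 14 passed an adjusted p of 0.05, as did 0 of all probe sets (0%). An unadjusted p under 0.05 was reached by 3 of the 14, both sets of Il7r and 1 of Il2rb, and by 6.48% of all probe sets. On their brightest sets 2 of the 8 genes reached it, Il7r and Il2rb, and 6.78% of all genes. The unmoderated test with unequal variances also called 0 probe sets. Both sets of Il7r, 2 of the 14, were without overlap and higher in Tcf1-/-, against 6.51% of all probe sets. None of the 14 was without overlap and lower, against 5.27%. In bulk RNA such as this, fewer cells of a type and less RNA per cell cannot be told apart.

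**Figure D1:**
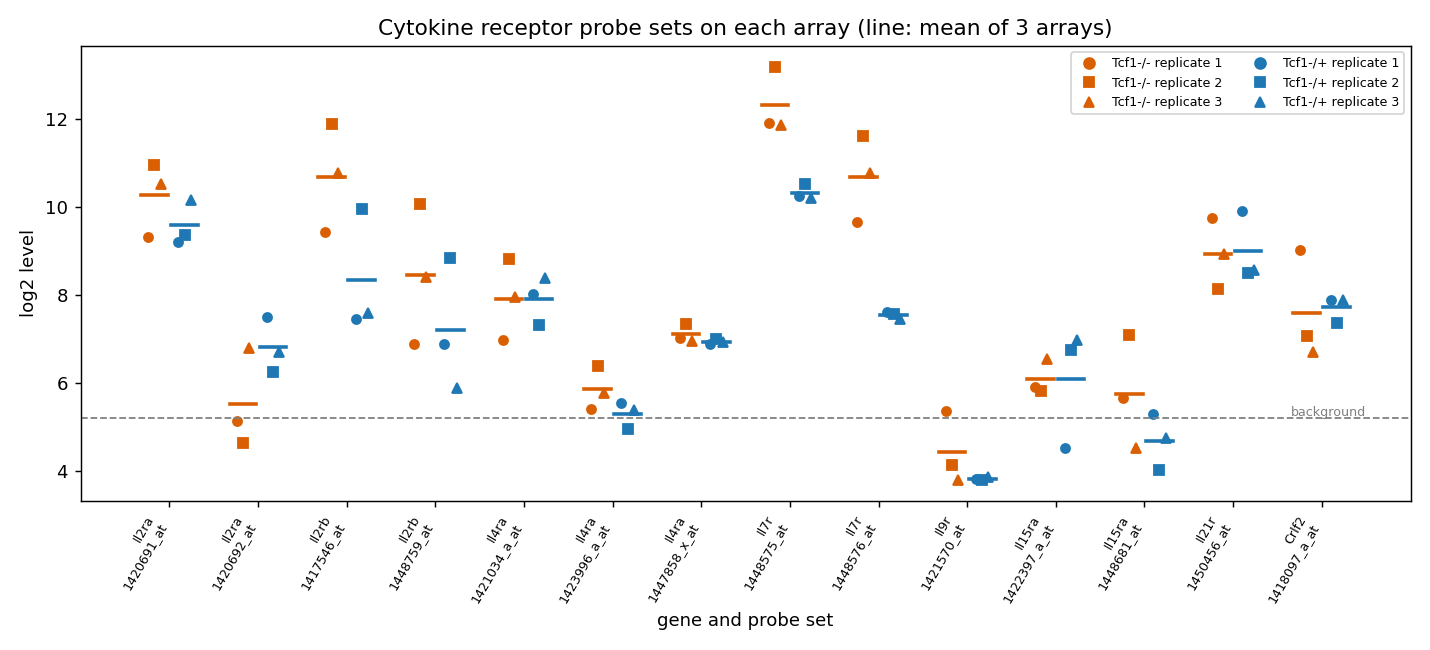
Log2 level (vertical axis) of each of the 14 receptor probe sets (horizontal axis) on the 3 Tcf1-/- arrays (orange) and the 3 Tcf1-/+ arrays (blue), with a line at the mean of each genotype and a dashed line at the background level of 5.21. The genotypes separate on both Il7r probe sets and overlap on the other 12, and Il9r lies mostly under background.

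Il7r encodes the interleukin 7 receptor alpha chain, which binds interleukin 7 with the common gamma chain and TSLP with Crlf2. On probe set 1448575_at Tcf1-/- replicates 1 to 3 had log2 levels of 11.91, 13.20 and 11.87, and Tcf1-/+ replicates 1 to 3 had 10.25, 10.54 and 10.21. Every Tcf1-/- array lay at least 1 log2 unit above the highest Tcf1-/+ array, and the Tcf1-/+ arrays lay close together. The means were 12.33 ± 0.76 (SD, n = 3) and 10.33 ± 0.18 (SD, n = 3), a 3.99-fold difference, and limma's adjusted p was 0.464. On probe set 1448576_at the levels were 9.66, 11.62 and 10.79 in Tcf1-/- and 7.62, 7.58 and 7.45 in Tcf1-/+. The separation was wider there, with means of 10.69 ± 0.98 (SD, n = 3) and 7.55 ± 0.09 (SD, n = 3). The difference was 3.14 with a 95% confidence interval of 1.93 to 4.35, an 8.82-fold difference, and its adjusted p from limma was 0.407. A difference at least this far from 0 was seen on 0.138% of all probe sets, and one as far as that of 1448575_at on 1.05%. Both sets were highest on Tcf1-/- replicate 2. Without that array the differences were 1.56 and 2.68. Leaving out an array cannot bring overlap to genotypes that have none, so the lack of overlap is not read here.

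The Il7r differences were also taken within each kind of sex-linked signal. Since the genotypes did not overlap on Il7r, each part of this split had to separate them. Only the sizes of the differences are read. On the arrays of low Y-linked signal, 1 of Tcf1-/- and 2 of Tcf1-/+, the differences were 1.68 and 2.13. On those of high Y-linked signal, 2 of Tcf1-/- and 1 of Tcf1-/+, they were 1.999 and 3.63. Each split leaves 1 genotype with a lone array, assumed to vary like the others. Innate lymphoid cells also carry Il7r. The mean log2 level of 10 measured marker genes of these cells was 8.77, 9.64 and 9.19 across Tcf1-/-, and 7.72, 7.96 and 7.51 across Tcf1-/+, and Tcf1-/- replicate 2 was highest here too. Of the 10, 7 had a higher and 3 a lower Tcf1-/- mean, 0 passed limma's adjusted threshold, and 0 had a mean over the 6 arrays under background. Without overlap, 5 were higher and 1 lower, against 12.2% of all genes without overlap in either direction. The 5 were Id2 at 3.19 (SE 0.49), Icos at 3.22 (SE 0.56), Il18r1 at 2.43 (SE 0.56), Cxcr6 at 4.50 (SE 1.09) and Il17rb at 1.05 (SE 0.31). The Tcf1-/+ mean of Cxcr6 was under background. Itga4 was lower without overlap at -0.65 (SE 0.31). With overlap, Rora was at 1.35 (SE 0.54), Zbtb16 at 0.01 (SE 0.23) and Gata3 at -0.39 (SE 0.40). Their part in the difference of Il7r was not tested.

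Crlf2, the TSLP-binding partner of Il7r, did not separate the genotypes. Its 1 probe set was at 9.04, 7.08 and 6.70 across Tcf1-/-, and at 7.90, 7.38 and 7.89 across Tcf1-/+. Tcf1-/- held both the highest and the 2 lowest of the 6 values. The difference was -0.11 (SE 0.63), with a 95% confidence interval of -1.66 to 1.43 and an adjusted p of 0.988 from limma. Its sign turned when Tcf1-/- replicate 2 or 3 was left out, at 0.15 and 0.34.

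Il2rb encodes the beta chain through which interleukins 2 and 15 signal, and is abundant on NK cells. On probe set 1417546_at its level was 9.43, 11.90 and 10.77 across Tcf1-/-, and 7.46, 9.97 and 7.60 across Tcf1-/+. The genotypes overlapped through Tcf1-/+ replicate 2, which lay above Tcf1-/- replicate 1. The difference was 2.36 (SE 0.90), a 5.12-fold difference, with an interval of 0.16 to 4.56 and an adjusted p of 0.743 from limma. On probe set 1448759_at the levels were 6.89, 10.08 and 8.41 in Tcf1-/- and 6.89, 8.85 and 5.89 in Tcf1-/+, a difference of 1.25 (SE 1.05) for which limma's adjusted p was 0.906. The arrays took a similar order on both sets, with Tcf1-/- replicate 2 highest. Without that array the differences were 1.76 and 0.44, and without Tcf1-/+ replicate 2 they were 3.17 and 2.07. On 1448759_at the difference was also 2.04 without Tcf1-/- replicate 1 and 0.59 without Tcf1-/+ replicate 3.

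Within each genotype, Il2rb was higher on the arrays of high Y-linked signal. The Tcf1-/+ array of high signal was at 9.97 on 1417546_at, against 7.46 and 7.60 on the 2 of low signal, and the Tcf1-/- arrays of high signal were at 11.90 and 10.77, against 9.43. The same held on 1448759_at. With Y-linked level as covariate the genotype differences were 1.64 and 0.47. Among arrays of low signal they were 1.90 and 0.50, and among arrays of high signal 1.37 and 0.39. The part of the sex-linked signal in these levels was not tested. Il7r 1448576_at was also higher on the Tcf1-/- arrays of high signal, at 11.62 and 10.79 against 9.66, while its Tcf1-/+ array of high signal, at 7.58, lay between those of low signal. On 1448575_at the Tcf1-/+ array of high signal was the highest of its genotype, and the Tcf1-/- arrays of high signal, at 13.20 and 11.87, lay on either side of that of low signal. Markers of NK cells were mixed, with 7 of 12 measured members higher in Tcf1-/- and mean levels of 7.10 to 7.48 in Tcf1-/- and 6.61 to 7.05 in Tcf1-/+. Gzmb and Gzma, which encode granzymes, were higher without overlap, by 4.06 (SE 0.69) and 3.05 (SE 1.14), and both are part of these mean levels. Gzma was at 7.53 on Tcf1-/- replicate 2, just above the 7.48 of Tcf1-/+ replicate 2. On Tcf1-/- replicates 1 and 3 it was at 11.16 and 12. Klrd1, an NK receptor gene, was without overlap and lower, at -1.49 (SE 0.60). Of the 12, 2 were thus higher and 1 lower without overlap, against 12.2% of all genes in either direction. Klrk1 differed by 1.26 (SE 0.86), and Tbx21, Ncr1 and Klre1 had means under background in both genotypes. Eomes was at 7.10 on Tcf1-/+ replicate 2 and between 4.39 and 5.26 on the other arrays. Of the 12, 0 passed limma's adjusted threshold. Their part in the level of Il2rb was not tested.

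**Figure D2:**
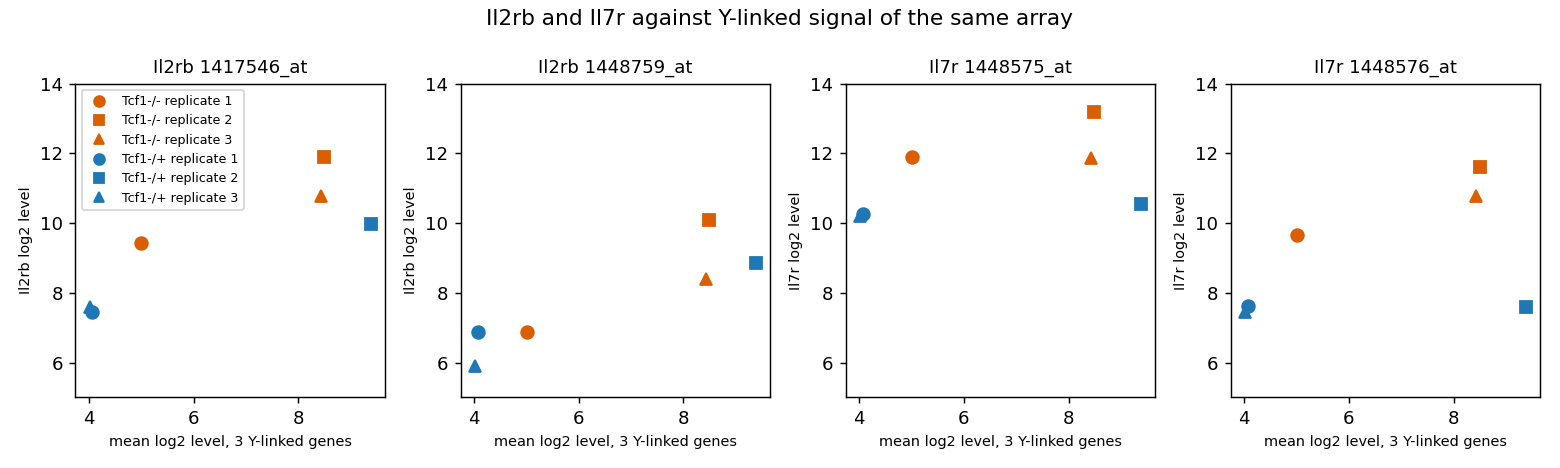
Log2 level of the 2 probe sets of Il2rb and the 2 of Il7r (vertical axes) against the mean log2 level of 3 Y-linked genes on the same array (horizontal axes), for 3 Tcf1-/- (orange) and 3 Tcf1-/+ (blue) arrays. Il2rb is higher on the arrays of high Y-linked signal within each genotype. Il7r 1448576_at is so within Tcf1-/-, at 11.62 and 10.79 against 9.66, and its Tcf1-/+ arrays stay between 7.45 and 7.62.

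Il2ra encodes CD25, the alpha chain that gives the interleukin 2 receptor its high affinity. It is normally switched on as ETPs pass to the next stage. On probe set 1420691_at it was at 9.32, 10.97 and 10.53 across Tcf1-/-, and at 9.22, 9.38 and 10.17 across Tcf1-/+. All 6 values lay well above background although the gate selects cells without surface CD25, and the genotypes overlapped. On probe set 1420692_at it was at 5.15, 4.65 and 6.80 in Tcf1-/- and at 7.51, 6.26 and 6.70 in Tcf1-/+. There 2 Tcf1-/- arrays lay under background. The differences had opposite signs, 0.69 (SE 0.50) and -1.29 (SE 0.63), with adjusted p of 0.895 and 0.827 from limma. The first was -0.37 on the arrays of low and 1.37 on those of high Y-linked signal, and it was 0.34 without Tcf1-/- replicate 2 and 1.16 without Tcf1-/- replicate 1. The second was -0.85 without Tcf1-/- replicate 2, -1.96 on the arrays of low and -0.54 on those of high Y-linked signal.

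Whether 2 probe sets of a gene changed unequally was tested on their difference within each array. For Il2ra, 1420691_at exceeded 1420692_at by 4.17, 6.32 and 3.74 log2 units across Tcf1-/-, and by 1.71, 3.12 and 3.46 across Tcf1-/+. Every Tcf1-/- value lay above every Tcf1-/+ value, and the means differed by 1.98. On Tcf1-/- replicates 1 and 2 the second set was under background, so those values and the mean difference are not measured in size. With a floor at background the difference of 1420692_at was -1.085. The two-sided exact permutation p was 0.1, the smallest that 3 against 3 arrays can give, and 0.233 after Benjamini-Hochberg adjustment over 7 such comparisons. Il7r and Il2rb also had no overlap of their within-array differences, with means that differed by -1.14 and 1.11 and the same exact permutation p of 0.1. For these genes the probe sets shared the sign of the genotype difference. The exact permutation p after adjustment was 0.233 for each, so an unequal size of the difference was not established. The 3 pairs of Il4ra had exact permutation p of 0.2, 0.7 and 0.3, and that of Il15ra 0.5. Which part of a transcript each probe set detects was not analysed here.

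**Figure D3:**
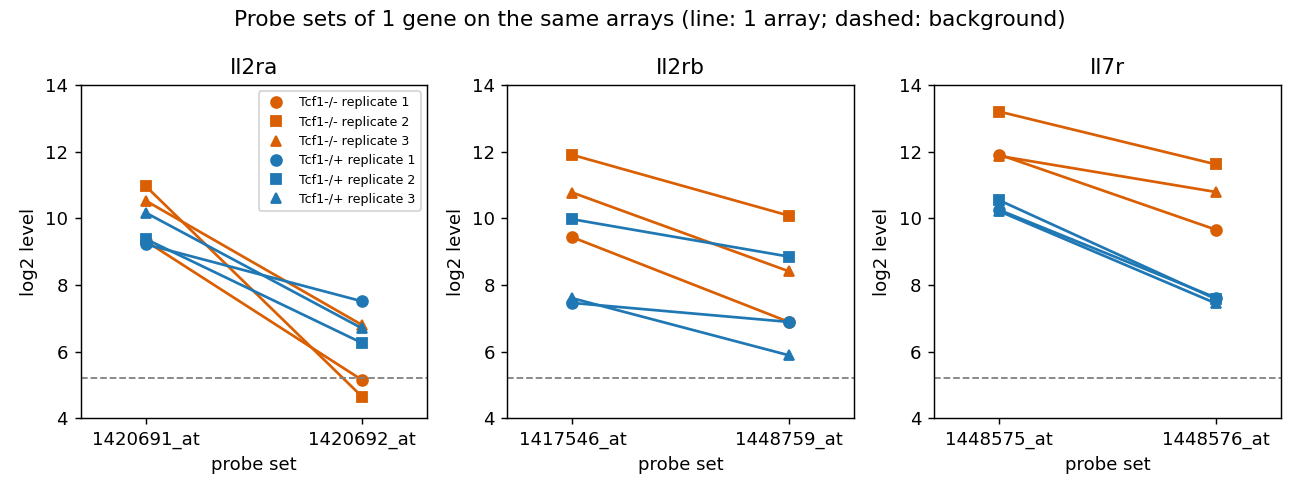
Log2 level (vertical axes) on the 2 probe sets (horizontal axes) of Il2ra, Il2rb and Il7r, with 1 line for each array, Tcf1-/- in orange and Tcf1-/+ in blue, and background as a dashed line. The Il2ra lines cross, with Tcf1-/- replicates 1 and 2 at 5.15 and 4.65 on 1420692_at, while those of Il7r keep the genotypes apart on both sets.

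Il15ra encodes the alpha chain that holds interleukin 15 and presents it to neighbouring cells. On probe set 1422397_a_at it was at 5.92, 5.83 and 6.56 across Tcf1-/-, and at 4.53, 6.75 and 6.99 across Tcf1-/+. Tcf1-/+ held the lowest and the 2 highest values, so the means were nearly equal, with a difference of 0.01 (SE 0.69) and an interval of -1.67 to 1.69. Without Tcf1-/+ replicate 1, the lowest array, the difference was -0.77. On probe set 1448681_at the levels were 5.66, 7.09 and 4.53 in Tcf1-/- and 5.30, 4.03 and 4.75 in Tcf1-/+. Tcf1-/- replicate 2 was the highest and 3 of the 6 arrays and the Tcf1-/+ mean lay under background, so the difference of 1.07 (SE 0.69) rests on levels near background. It was 0.40 without Tcf1-/- replicate 2 and 1.68 without Tcf1-/- replicate 3. Il15ra and Il2ra lie next to each other on chromosome 2, with 0 protein-coding genes of the RefSeq GRCm38.p6 table between them.

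Il4ra encodes the alpha chain for interleukins 4 and 13. On its brightest probe set, 1421034_a_at, it was at 6.99, 8.83 and 7.96 across Tcf1-/-, and at 8.03, 7.32 and 8.39 across Tcf1-/+. The Tcf1-/- values enclosed those of Tcf1-/+, and the difference was 0.01 (SE 0.53), with an interval of -1.28 to 1.31. On the arrays of low Y-linked signal it was -1.22 and on those of high signal 1.08, and without Tcf1-/- replicate 2 it was -0.44. The other probe sets differed by 0.57 (SE 0.32) and 0.17 (SE 0.20), the second with all 6 arrays between 6.89 and 7.35. The adjusted p of the 3 sets lay between 0.856 and 0.998 with limma. Il21r, which encodes the interleukin 21 receptor, is the next protein-coding gene to Il4ra on chromosome 7. Its 1 probe set was at 9.75, 8.14 and 8.95 in Tcf1-/- and at 9.91, 8.51 and 8.57 in Tcf1-/+. Replicate 1 of each genotype was the highest, and the difference was -0.05 (SE 0.56), with an interval of -1.42 to 1.31. Il21r thus lay above background on all 6 arrays with no difference in its mean beyond the spread between arrays.

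Il9r encodes the interleukin 9 receptor chain, used by mast cells and some innate lymphoid and T cells. It was at 5.38, 4.14 and 3.8 across Tcf1-/-, and at 3.83, 3.8 and 3.87 across Tcf1-/+. Only Tcf1-/- replicate 1 lay above background, and without it the difference of 0.61 was 0.14. Both means were under background, so the difference is not measured in size. Markers of mast cells and basophils, 7 measured genes, had mean levels of 9.37, 7.09 and 9.66 in Tcf1-/- and between 6.85 and 7.97 in Tcf1-/+, so the genotypes overlapped through Tcf1-/- replicate 2. All 7 had a higher Tcf1-/- mean, with Mcpt8 at 3.14 (SE 0.60) and Cpa3 at 1.09 (SE 0.37), and 0 passed the adjusted threshold of limma. Their part in the level of Il9r was not tested.

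**Figure D4:**
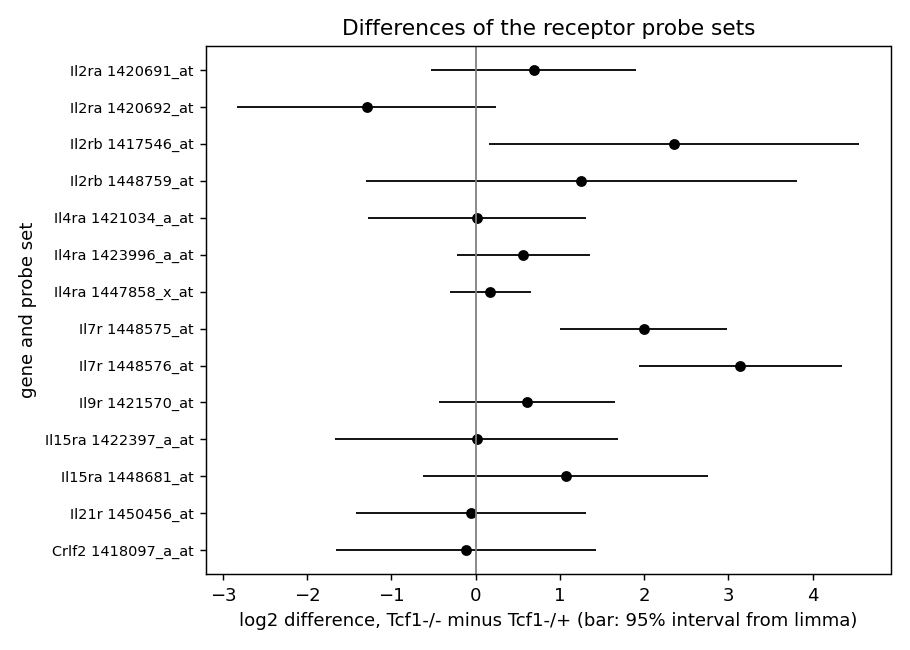
Log2 difference, Tcf1-/- mean minus Tcf1-/+ mean (horizontal axis), with its 95% confidence interval from limma, for each of the 14 receptor probe sets (vertical axis). The intervals of both Il7r sets and of Il2rb 1417546_at lie above 0 before adjustment, and those of the other 11 include 0.

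The genes whose centred levels followed Il7r most closely over the 6 arrays were sought among 9946 probe sets above the median level that varied at least 0.5 times as much. The root mean square difference from 1448575_at was 0.15 log2 units for Arnt2, 0.20 for Tinf2 and 0.21 for Man1c1, where the median of the candidates was 1.45. Arnt2, which encodes a basic helix-loop-helix transcription factor, was at 6.69, 8.0 and 6.83 in Tcf1-/- and at 4.71, 5.20 and 4.91 in Tcf1-/+. Its Tcf1-/+ values were all under background, so that their order is not read and it passed the filter on level through Tcf1-/-. Around Il2rb 1417546_at, whose SD was larger, 4760 candidates had a median root mean square difference of 2.05. The nearest were Gm36723 at 0.42, Ifi213, an interferon-inducible gene, at 0.43 and Il18r1, a chain of the interleukin 18 receptor, at 0.46. Under background were Gm36723 on Tcf1-/+ replicates 1 and 3, at 4.20 and 4.35, and Ifi213 on Tcf1-/+ replicate 1, at 4.96. With Tcf1-/+ replicate 2 at 6.51, the Tcf1-/+ mean of Gm36723 was under background. Gm36723 thus also passed the filter on level through Tcf1-/-. Il18r1, also among the innate lymphoid markers above, was at 11.02, 12.45 and 12.15 in Tcf1-/- and at 8.87, 10.42 and 9.05 in Tcf1-/+. All these genes were chosen for closeness over the same 6 arrays, so a shared order of the arrays follows from the choice.

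Of 8 ligand genes, 6 had both means under background. Il7 was between 3.69 and 5.30 on all arrays, and Il2, Il4, Il13, Il21 and Tslp also had means under background in both genotypes. Il15 was above background on all 6 arrays, between 5.66 and 6.48, and differed by -0.04 (SE 0.32). Il9 lay just above background, at 5.58 against 5.32, a difference of 0.26 (SE 0.20). Il4 differed by 0.62 (SE 0.43), Il7 by -0.50 (SE 0.39) and Tslp by 0.38 (SE 0.31), each between means under background. The median difference of the 8 was 0.20, against 0.04 over all 18193 genes, and 0 passed the adjusted threshold.

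Downstream of the receptors, kinases, STAT factors and feedback regulators lay close to balance. Of 21 measured genes of this list, 10 had a higher and 11 a lower Tcf1-/- mean, with a median of -0.02, and 0 passed limma's adjusted threshold. Cish, a feedback inhibitor that STAT5 induces, was at 7.51, 8.30 and 7.03 across Tcf1-/-, and at 6.23, 6.53 and 6.48 across Tcf1-/+. It did not overlap and was highest on Tcf1-/- replicate 2, with a difference of 1.20 (SE 0.35) and an adjusted p of 0.640 from limma. A link of its level to that of the receptors was not tested. Irs2, an adaptor of interleukin 4 and insulin signalling, also did not overlap, with a difference of 0.61 (SE 0.27). Without overlap in either direction were 2 of the 21, against 12.2% of all genes. Socs1, another feedback inhibitor, differed by 0.50 (SE 0.33).

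Sh2b3, an adaptor that restrains cytokine signalling, had a difference of -1.16 (SE 0.48) for the brightest set and -0.01 for the other. Jak1, the kinase bound to the cytokine-specific chains, differed by -0.26 (SE 0.41), and its other sets by -0.85 and 0.24. Jak3, the kinase of the gamma chain, was at 5.04, 7.96 and 6.38 in Tcf1-/- and at 7.99, 7.58 and 5.35 in Tcf1-/+, a difference of -0.51 (SE 0.98). The values of Jak3 spread widely within each genotype. The difference of Stat5a was 0.66 (SE 0.51), and -0.20 for its second set. Stat5b differed by -1.16 (SE 0.87), with Tcf1-/- replicate 2 at 5.62 where the other 5 arrays lay between 8.60 and 9.0, and 0.00 for its second set.

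Genes of survival and proliferation that act behind these receptors had a median difference of -0.15, with 7 of 17 measured members higher and 10 lower in Tcf1-/- and 0 past the adjusted threshold. Bcl2, an anti-apoptotic gene that interleukin 7 maintains in lymphocytes, was higher on every Tcf1-/- array than on every Tcf1-/+ array on all 5 of its probe sets. On the brightest, the means were 12.34 ± 0.19 (SD, n = 3) and 11.53 ± 0.33 (SD, n = 3). The difference was 0.81 (SE 0.25) with an adjusted p of 0.655 from limma, and over the 5 sets the differences ran from 0.81 to 1.86. The set that differed by 1.61 (SE 0.87) separated only narrowly, with Tcf1-/- replicate 3 at 8.14 and Tcf1-/+ replicate 2 at 8.12. Tcf1-/+ replicate 3 was at 5.11 on that set, under background. Of all probe sets, 6.51% were higher in Tcf1-/- without overlap. Whether Bcl2 followed Il7r in these cells was not tested. Slc2a1, a glucose transporter gene, had a lower mean on all 3 of its sets, by -0.87 (SE 0.31) on the brightest, and 2 of the 3 were without overlap. The proliferation regulator gene Myc differed by -0.88 (SE 0.41) and Bcl6, a transcriptional repressor, by 0.55 (SE 0.28), both with overlap.

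The other class I cytokine receptors, which have the same fold but do not use the gamma chain, gave the nearest comparison. Of 22 measured genes, 10 had a higher and 12 a lower Tcf1-/- mean, and their median difference was -0.10, against 0.31 for the 8 receptor genes of the gamma chain and TSLP families. In the latter, 6 had a higher and 2 a lower mean on the brightest probe set. On those sets, 4 of the 22 (Il12rb1, Il13ra2, Il27ra and Epor) and 1 of the 8 (Il7r) were higher without overlap. In both lists 0 were lower without overlap. Of all genes, 12.2% were without overlap in either direction. The difference between the lists was not tested. The 0.31 lies midway between Il4ra at 0.01 and Il9r, whose means are under background, and it was 0.015 with the filter on dim probe sets and 0.035 with a floor at background. Il12rb1, a chain of the interleukin 12 and 23 receptors, was at 6.89, 9.18 and 7.88 in Tcf1-/- and at 5.90, 5.43 and 6.72 in Tcf1-/+. It did not overlap, was highest on Tcf1-/- replicate 2 and differed by 1.97 (SE 0.64), and limma's adjusted p was 0.693. Il13ra2, a decoy receptor of interleukin 13, differed by 0.88 (SE 0.34) and Epor, the erythropoietin receptor, by 1.16 (SE 0.53), both from Tcf1-/+ means under background, and Il27ra by 0.77 (SE 0.32). Il6st, the signalling chain shared by the interleukin 6 family, had lower Tcf1-/- means on all 4 of its probe sets, by -0.86 (SE 0.42) on the brightest. On 2 of the others the genotypes did not overlap, with differences of -2.06 and -2.05.

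**Figure D5:**
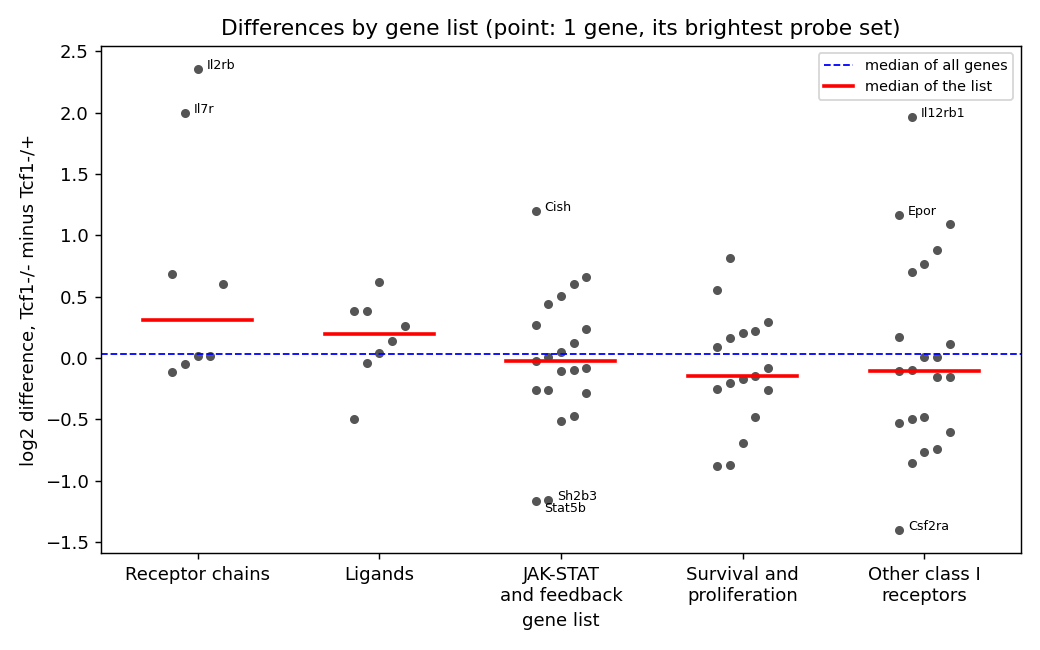
Log2 difference, Tcf1-/- minus Tcf1-/+ (vertical axis), of each gene on its brightest probe set for 5 gene lists (horizontal axis), with the median of the list in red and the median of all genes, 0.04, as a dashed line. Il2rb at 2.36 and Il7r at 2.00 lie apart from the 6 other receptor chains, and the medians of the downstream lists lie between -0.15 and -0.02.

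Markers of ETPs and of other cell types were mixed. The Lin- gate is meant to remove cells that carry lineage markers, and its antibodies are not given among the labels. Of the ETP genes 3 of 10 had a higher Tcf1-/- mean, with Flt3 at -1.53 (SE 0.42) and Cd34 at -1.24 (SE 0.36). Of the genes of the next thymocyte stages 3 of 13 did, with Thy1 at 2.48 (SE 0.52) and Dntt at -1.36 (SE 0.33), and of mature T-cell genes 4 of 9, with Cd4 at 2.93 (SE 0.61) and Cd28 at -2.97 (SE 0.69). NK, innate lymphoid and mast cell genes are given above. Of the gamma delta T-cell genes 3 of 6 were higher, with Maf at 2.62 (SE 0.47) and Blk at 2.44 (SE 0.63). Of the B-cell genes 7 of 9 were higher, with Ms4a1 at 0.31 (SE 0.19) and Pax5 at 0.52 (SE 0.45). Both means were under background for 3 of these 9, Ms4a1 among them. The Tcf1-/+ mean of Pax5 was under background, and its Tcf1-/- arrays were at 5.07, 6.56 and 5.08. Myeloid genes were higher for 8 of 10, with S100a8 at 2.64 (SE 1.14) and Csf1r at -1.63 (SE 1.19), and dendritic cell genes for 5 of 12, with Cd74 at -1.61 (SE 0.46). Erythroid genes were higher for 5 of 7, with Car1 at 3.41 (SE 1.52). Stromal and endothelial genes were higher for 10 of 10, with Dll4 at 0.50 (SE 0.24) and Pdgfra at 0.37 (SE 0.24). Both means were under background for 3 of these 10, and the Tcf1-/+ mean of Dll4 was under it. By limma, 0 genes of any of these lists passed the adjusted threshold.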

How the data were processed

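RNA was measured on Affymetrix mouse expression arrays. The deposited table holds log2 values per probe set for 6 arrays, between 2.15 and 14.8 and with 0 missing. The scale was read from the values, and the authors' summarization and normalization are not given in the sources here. Per the labels' protocols, RNA yield averaged 3 ng for 1000 cells, and the RNA was amplified before hybridization. Arrays have no read depth, and their number limits the precision. Columns not used numbered 0.

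Values were used as deposited. The 64 control probe sets were left out. Of 45037 tested, 34945 had 1 symbol in the platform annotation, 932 several and 9160 none here. Gene IDs of 34741 were found in the RefSeq table of GRCm38.p6, with 0 symbols updated. Each listed gene stands for its brightest probe set (mean of 6 arrays).

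The comparison used lmFit and eBayes of limma 3.58.1 (R 4.3.3, two-sided, no covariates), with Benjamini-Hochberg adjustment over all tested probe sets and a threshold of 0.05. The fit was tested on simulated data. Probe sets of a gene were compared by exact permutation. The members and lists were chosen with earlier results of these data known. Lists were described by counts and medians without a test. Genes named are all members, the 4 of smallest unadjusted p in each list of ligands, signalling, survival and other receptors, the 2 of smallest unadjusted p in each marker list, 10 fixed genes (Jak1, Jak3, Stat5a, Stat5b, Bcl2, Il7, Il15, Il6st, Kit and Cd44) and the 3 nearest in pattern to Il7r and Il2rb. Nearest patterns to Il2rg were not sought. Further names were picked with values in view. Alternatives were the replicate block, quantile normalization, a common median, a filter and a floor on dim values, array weights, a trended robust prior, the Y-linked level as a covariate or as a split, other uses of probe sets, an unmoderated test and leaving out each array. The split to arrays of high Y-linked signal and the counts of receptor probe sets under the alternatives were added after the data were seen.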

Additional observations from a re-analysis of the deposited data

How the results depend on the processing

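The number of probe sets called was 0 under every alternative that gave one; the mean of all probe sets of a gene gave list medians only. Both sets of Il7r, both of Il2rb and 4 of the other 10 sets (1420692_at of Il2ra, 1447858_x_at of Il4ra, the set of Il9r and 1448681_at of Il15ra) kept their sign under every alternative that gave a value, and 6 did not. Il7r 1448575_at ran from 1.56 to 2.22 and 1448576_at from 2.13 to 3.65, with adjusted p of 0.280 or more from limma. Between 8 and 12 receptor probe sets had a higher Tcf1-/- mean, the lowest under the filter, which removed some sets.

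Signs turned as follows, and the cause was not tested. With the floor, Il15ra 1422397_a_at was -0.22. With array weights, Il4ra 1421034_a_at was -0.19, Il21r 0.11 and Crlf2 0.0088. With Y-linked level as covariate, Il15ra 1422397_a_at was -0.21, Il21r 0.24 and Crlf2 0.26. On arrays of low Y-linked signal, Il2ra 1420691_at was -0.37, Il4ra 1421034_a_at -1.22 and 1423996_a_at -0.055, Il21r 0.51 and Crlf2 1.15. On those of high signal, Il15ra 1422397_a_at was -0.56 and Il21r 0.033. Leaving out each array in turn gave -0.44 to 0.48 for Il4ra 1421034_a_at, -0.77 to 0.46 for Il15ra 1422397_a_at, -0.45 to 0.41 for Il21r and -0.83 to 0.34 for Crlf2.

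The median of the 8 receptor genes, 0.31, was 0.015 with the filter, which tests fewer of them, 0.035 with the floor, 0.83 on arrays of low and 0.62 on arrays of high Y-linked signal, and 0.31 to 0.54 with an array left out. The JAK-STAT median, -0.02, was -0.20 on arrays of high Y-linked signal and -0.16 to 0.19 with an array left out. The survival median, -0.15, was 0.041 with the Y-linked covariate, 0.037 on arrays of low Y-linked signal, 0.0082 with the mean of all probe sets of a gene and -0.17 to 0.012 with an array left out. The median of the other class I receptors, -0.10, was -0.48 with the filter, 0.090 on arrays of low Y-linked signal and -0.20 to -0.00093 with an array left out, nearest to 0 without Tcf1-/- replicate 2.

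Both genotypes number their arrays 1 to 3. Deviations of same-numbered arrays correlated at 0.03, 0.04 and 0.01, none over 0.1, and not every array correlated best with its own number, so the numbers were not taken to pair the arrays. With the replicate block 0 probe sets were called, and Il7r had adjusted p of 0.624 and 0.616.

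Without 1 array, the receptor sets that did not overlap and were higher in Tcf1-/- numbered 2 to 5, where 10.3% to 14.6% of all probe sets did so. Leaving out Tcf1-/- replicate 1 or 3 or Tcf1-/+ replicate 2 gave 5. Both sets of Il7r are always among them, since leaving out an array cannot bring overlap.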
